A study of Mus musculus with 30 samples.

Results

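Glycolysis and glucose uptake genes were followed in RNA of mouse embryonic stem (ES) cells and of embryoid bodies (EBs), the aggregates that ES cells form when they differentiate in suspension. The members are the genes for facilitated glucose uptake, for each enzymatic step from hexokinase to lactate dehydrogenase, for the switch of pyruvate into mitochondria and for lactate export. They were listed by gene name, with earlier results of these data known. Of 34 listed symbols, 33 had a row in both deposited tables of 23284 genes. Pyruvate kinase M appears there under its older symbol, Pkm2. In the time course, wild-type E14Tg2a.IV cells (129/Ola background, here E14), kept with serum and LIF, were sampled as ES cells at day 0 and as EBs at days 1, 2, 3 and 4, with 2 libraries each. In the genotype table, EBs of C57BL/6J background were sampled at day 4, 2 libraries from wild-type Trp53+/+ cells and 2 from a Trp53-/- line that also carried p63shRNA and p73shRNA, called p53 family loss here. The ES cells of both C57BL/6J lines were kept in N2B27 medium with LIF and 2i. The labels describe 1 line per genotype, and give no hairpin for the Trp53+/+ cells, so the lines' history and the loss of the p53 family cannot be told apart. Whether the libraries of a group came from separate cultures is not stated, and p-values measure only the spread between these libraries. In the time course that spread was pooled over all days, so it is not the spread of the 2 days compared alone.

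Glycolysis splits glucose into pyruvate in the cytosol and yields ATP without oxygen. Pyruvate is either reduced to lactate by lactate dehydrogenase and exported by monocarboxylate transporters, or enters mitochondria through the pyruvate dehydrogenase complex, which pyruvate dehydrogenase kinases switch off. Pluripotent cells are known for high glycolytic flux, and the shift from naive to primed pluripotency for a further turn toward glycolysis. Many of these genes are known targets of the hypoxia-inducible factor HIF-1, and p53 is known to act on several steps of glucose use.

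Because HIF-1 binds the core ACGTG, promoter sequences (RefSeq, GRCm38.p6) of the members were searched for it on both strands, from 250 bases before to 50 after each annotated start. Of 32 members with a promoter sequence, 17 held the core (53.1%), against 21.8% of all genes with a promoter sequence and 28.1% of those tested in the time course. A gene counted if any of its annotated starts held the core, so genes with more starts had more windows. The members Pfkm and Pfkfb1 have 4 starts each, and all 27025 genes together had 32851. Of these 32851 windows 19.6% held the core, and the share per window was not computed for the members. The E-box CACGTG, which contains the core on both strands, was in 6 of the 32 (18.8%), against 8.09% of all genes with a promoter sequence and 11.4% of those tested in the time course. Of the 15 members with a promoter that were higher at day 2 or day 4 than at day 0, as described next, 11 held the core, and of the other 17 members 6 did. The same split was not made over all genes, so no background share stands beside it. These shares describe the letters in a window and are not evidence of binding. Pfkl, Tpi1 and Eno2 also rose at both days and held no core, while Hk1, lower at day 4, held 2. The 250 bases before the start are shown for examples picked by their cores. Of these, Ldha, Pgk1 and Slc16a3 rose at both days and hold several cores. Pfkp fell at both days and holds none in its searched window. Each is printed from 5′ to 3′ on the gene's own strand, with matches to the core on either strand in capitals.
Ldha (chr7:46845554-46845803, plus strand): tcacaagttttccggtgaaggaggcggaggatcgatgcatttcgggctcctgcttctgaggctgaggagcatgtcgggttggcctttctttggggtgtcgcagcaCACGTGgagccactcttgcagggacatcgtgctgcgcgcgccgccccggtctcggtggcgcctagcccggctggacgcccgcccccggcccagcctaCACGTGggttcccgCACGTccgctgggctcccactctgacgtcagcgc
Pgk1 (chrX:106186850-106187099, plus strand): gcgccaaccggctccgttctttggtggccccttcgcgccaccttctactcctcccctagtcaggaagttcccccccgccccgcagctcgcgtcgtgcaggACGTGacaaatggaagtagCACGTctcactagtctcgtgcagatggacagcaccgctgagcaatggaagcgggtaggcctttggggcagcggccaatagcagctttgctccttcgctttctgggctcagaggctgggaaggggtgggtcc
Slc16a3 (chr11:120948817-120949066, plus strand): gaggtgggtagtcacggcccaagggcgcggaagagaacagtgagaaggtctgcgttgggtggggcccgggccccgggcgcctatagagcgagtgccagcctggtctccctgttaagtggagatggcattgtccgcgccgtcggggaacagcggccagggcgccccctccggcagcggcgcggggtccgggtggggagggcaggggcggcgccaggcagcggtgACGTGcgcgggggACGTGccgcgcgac
Pfkp (chr13:6648772-6649021, minus strand): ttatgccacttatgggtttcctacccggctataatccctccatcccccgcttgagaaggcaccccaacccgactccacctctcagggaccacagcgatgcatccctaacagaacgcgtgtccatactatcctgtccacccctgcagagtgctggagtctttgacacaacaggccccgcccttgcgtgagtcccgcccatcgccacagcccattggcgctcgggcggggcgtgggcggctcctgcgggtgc
Ldha has 2 copies of the E-box, each counted as a match on both strands, and a further core nearer its start, for 5 matches. Pgk1 has 2 matches, 1 on each strand, and both matches of Slc16a3 lie on the gene's strand within 27 bases of the start.

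The time course libraries held 20104644 to 39835808 reads and the genotype libraries 19104692 to 31580252. Values below are the deposited normalised read counts, which can be compared between libraries of 1 table but not between genes or tables. The markers moved with the labels: the naive ES cell gene Zfp42 went from a mean of 21231 at day 0 to 441 at day 4, and the primitive streak gene T from 77.3 to 18956. Trp53 itself was at 8339 and 11784 in the Trp53+/+ libraries and at 866 and 802 in the loss libraries. The 2 day 0 libraries stood apart from each other: immediate early and stress genes summed to 30003 in replicate 1 and 3792 in replicate 2, and primed epiblast markers to 7764 and 23235.5. At day 0, 24.9% of all tested genes differed by more than 1 log2 unit between the 2 libraries, against 3.86% to 10.6% in the other groups.

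The comparison of EBs with ES cells asked how glucose use is retuned in RNA as E14 cells differentiate. More members rose than fell. At day 4, 13 of 33 were higher than at day 0 and 3 were lower (limma on log2 of the count plus 1, adjusted p under 0.05). Over all 15841 genes tested 19.2% were higher and 16.7% lower, and 36% were called in either direction. The members had a median log2 fold change of 0.52, and all genes of 0.01. At day 2, 11 were higher and 3 lower than at day 0, where 10.1% of all genes were higher and 8.22% lower (18.3% in all), and the median was 0.56 against 0. Between day 2 and day 4 only Slc16a1 and Eno3 were called, both higher, 2 of 33 members against 16% of all genes (8.35% higher and 7.68% lower). Higher at both days were Pfkl, Tpi1, Pgk1, Pgam1, Eno2, Pkm2, Ldha, Pdk2 and Slc16a3. Pfkp was the 1 member lower at both. In bulk RNA, fewer cells of a type and less RNA per cell cannot be told apart. Both comparisons share the day 0 libraries.

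Of the 16 members called at day 4, 7 were called under each of 12 alternative analyses: Pfkl, Pfkp, Pgk1, Eno2, Ldha, Slc16a1 and Slc16a3. At day 2 this held for Pfkl and Slc16a3 of 14. A further fit held only the 4 libraries of the 2 days compared. At day 4 against day 0, limma then called 7 members, beside 2822 of 15109 genes tested. At day 2 against day 0 it called 2 members, beside 808 of 15146 genes. Between day 2 and day 4 it called 12 members, beside 6765 of 15329 genes.

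**Figure D1:**
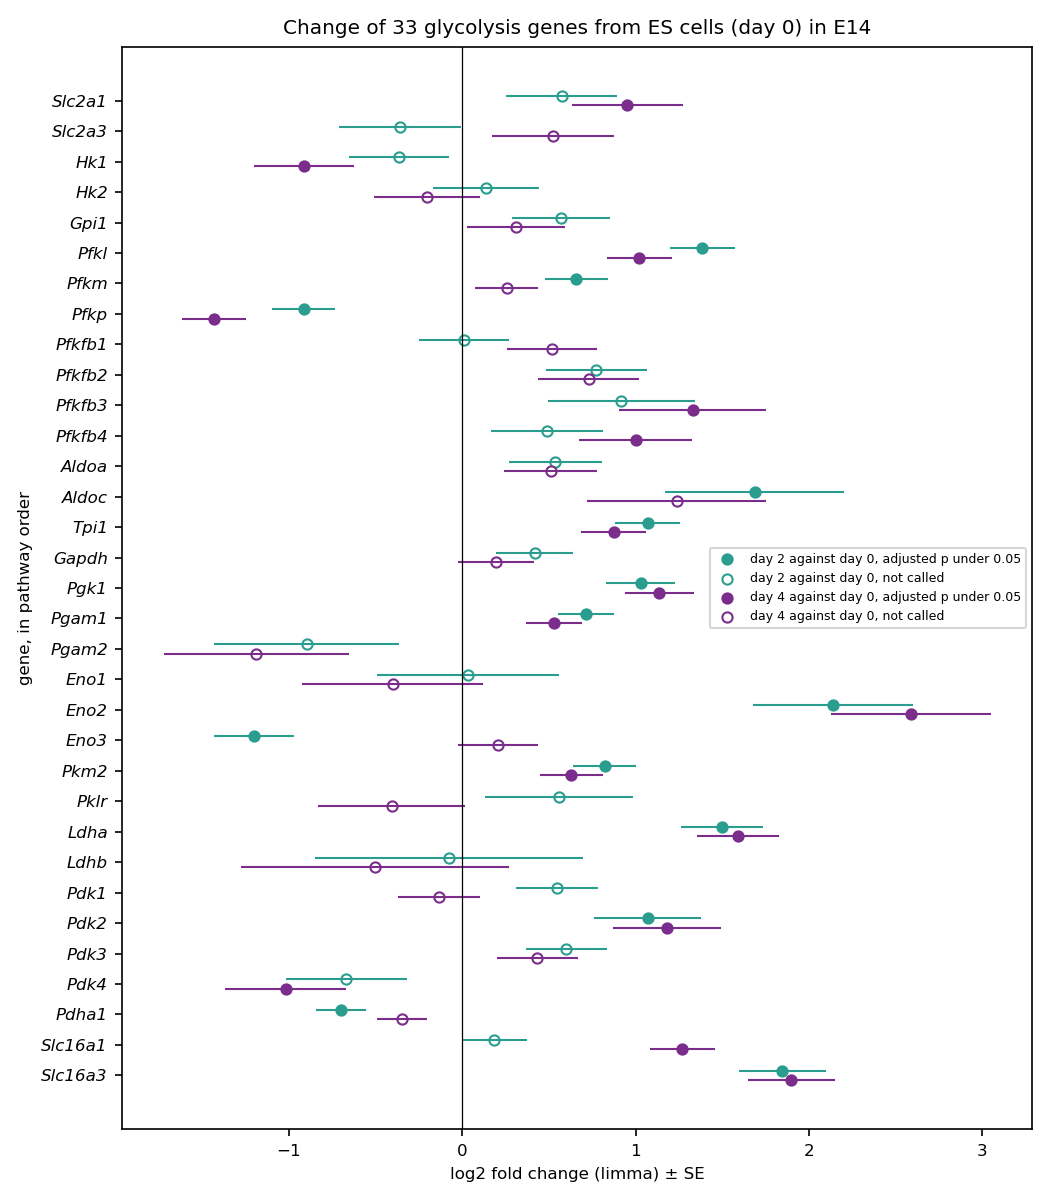
Log2 fold change (limma, points, with SE as bars) of 33 members at day 2 and at day 4, each against day 0, in pathway order; filled points have an adjusted p under 0.05. Eno2, Slc16a3 and Ldha lie farthest to the right among filled points at day 4, while Pfkp, Pdk4 and Hk1 lie to the left of 0.

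Glucose enters through the transporters Slc2a1 (GLUT1) and Slc2a3 (GLUT3). Slc2a1 was at 22369.5 and 28837 at day 0, 22715 and 33912 at day 1, 28302 and 50515 at day 2, 39989.8 and 60913 at day 3, and 43381 and 55636 at day 4. Both day 4 libraries lay above both day 0 libraries, and the log2 fold change was 0.95 ± 0.32 (limma, adjusted p = 0.042). That call ended without day 0 replicate 1, without either day 4 library and with no low-value filter, with adjusted p up to 0.21. Slc2a3, a high-affinity transporter, was at 59766 and 35569 at day 0, 23031 and 30388 at day 1, 26189 and 49256 at day 2, 54103 and 88136 at day 3, and 66758 and 65722 at day 4. It dipped in the mean at day 1 and was highest at day 3, a change over the 5 days (limma, adjusted p = 0.036), while day 4 against day 0 was not called (0.52 ± 0.35, adjusted p = 0.27). Its day 3 replicate 1 lay below day 0 replicate 1, and alternatives to the test over 5 days were not recorded gene by gene.

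Hexokinases trap glucose in the cell as glucose-6-phosphate. Hk1, the broadly expressed form, was at 3024 and 1513 at day 0 and at 1131 and 1140.4 at day 4, a log2 fold change of -0.91 ± 0.29 (limma, adjusted p = 0.034). Its 2 day 0 libraries differed from each other by as much. The call ended without day 0 replicate 1 or without either day 4 library, with adjusted p up to 0.13. Hk2, the inducible form, ranged from 7171 to 14746 over the 10 libraries, with day 0 spanning that whole range, and was called in none of the comparisons. Gpi1, which makes fructose-6-phosphate, was highest in the mean at day 3, with 30278 and 41835 against 25723 and 14911 at day 0, and was not called either.

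Phosphofructokinase commits sugar to glycolysis, and its 3 subunit genes moved differently. Pfkl, the liver-type subunit, was at 11548 and 15121 at day 0, 21893 and 23482 at day 1, 32626 and 36528 at day 2, 28638 and 37361 at day 3, and 27096 and 26503 at day 4. Every EB library lay above both ES cell libraries, with log2 fold changes of 1.39 ± 0.19 at day 2 (limma, adjusted p = 0.0018) and 1.02 ± 0.19 at day 4 (adjusted p = 0.0028). Pfkp, the platelet-type subunit, went the other way, from 9137 and 9691 at day 0 and 10493 and 9750.3 at day 1 to 4515 and 5509 at day 2, 3735 and 5153 at day 3, and 3385 and 3598 at day 4. Its 6 libraries of days 2 to 4 lay below all 4 of days 0 and 1, and the log2 fold change was -0.92 ± 0.18 at day 2 (limma, adjusted p = 0.0092) and -1.43 ± 0.18 at day 4 (adjusted p = 4.0e-04). Without day 2 replicate 1 the call at day 2 ended (limma, highest adjusted p = 0.092). Pfkm, the muscle-type subunit, was higher at day 2, with 3370 and 3417 against 2560 and 1809 at day 0 (0.66 ± 0.18; limma, adjusted p = 0.032). That call ended without either day 2 library, and at day 4 the difference was 0.26 ± 0.18 (limma, adjusted p = 0.29). How much of the enzyme each subunit makes up was not computed, since counts are not comparable between genes.

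The 4 Pfkfb genes set the level of fructose-2,6-bisphosphate, the activator of phosphofructokinase. Pfkfb3, a form with high kinase activity, was at 1895 and 1232 at day 0, 1089 and 1944 at day 1, 2414 and 3449 at day 2, 4914 and 6560 at day 3, and 6013 and 2452 at day 4. It was higher at day 4 by 1.33 ± 0.42 (limma, adjusted p = 0.034), and its 2 day 4 libraries differed from each other by more than 1 log2 unit. Pfkfb4 went from 127 and 81.9 to 206 and 204 (1.00 ± 0.32; limma, adjusted p = 0.036). Both calls ended without day 4 replicate 1 and without day 0 replicate 2, that of Pfkfb4 also without day 4 replicate 2, with adjusted p up to 0.28 and 0.15. Pfkfb1 and Pfkfb2 differed at day 4 by 0.52 ± 0.26 and 0.73 ± 0.29 and were not called (limma, adjusted p = 0.15 and 0.074).

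**Figure D2:**
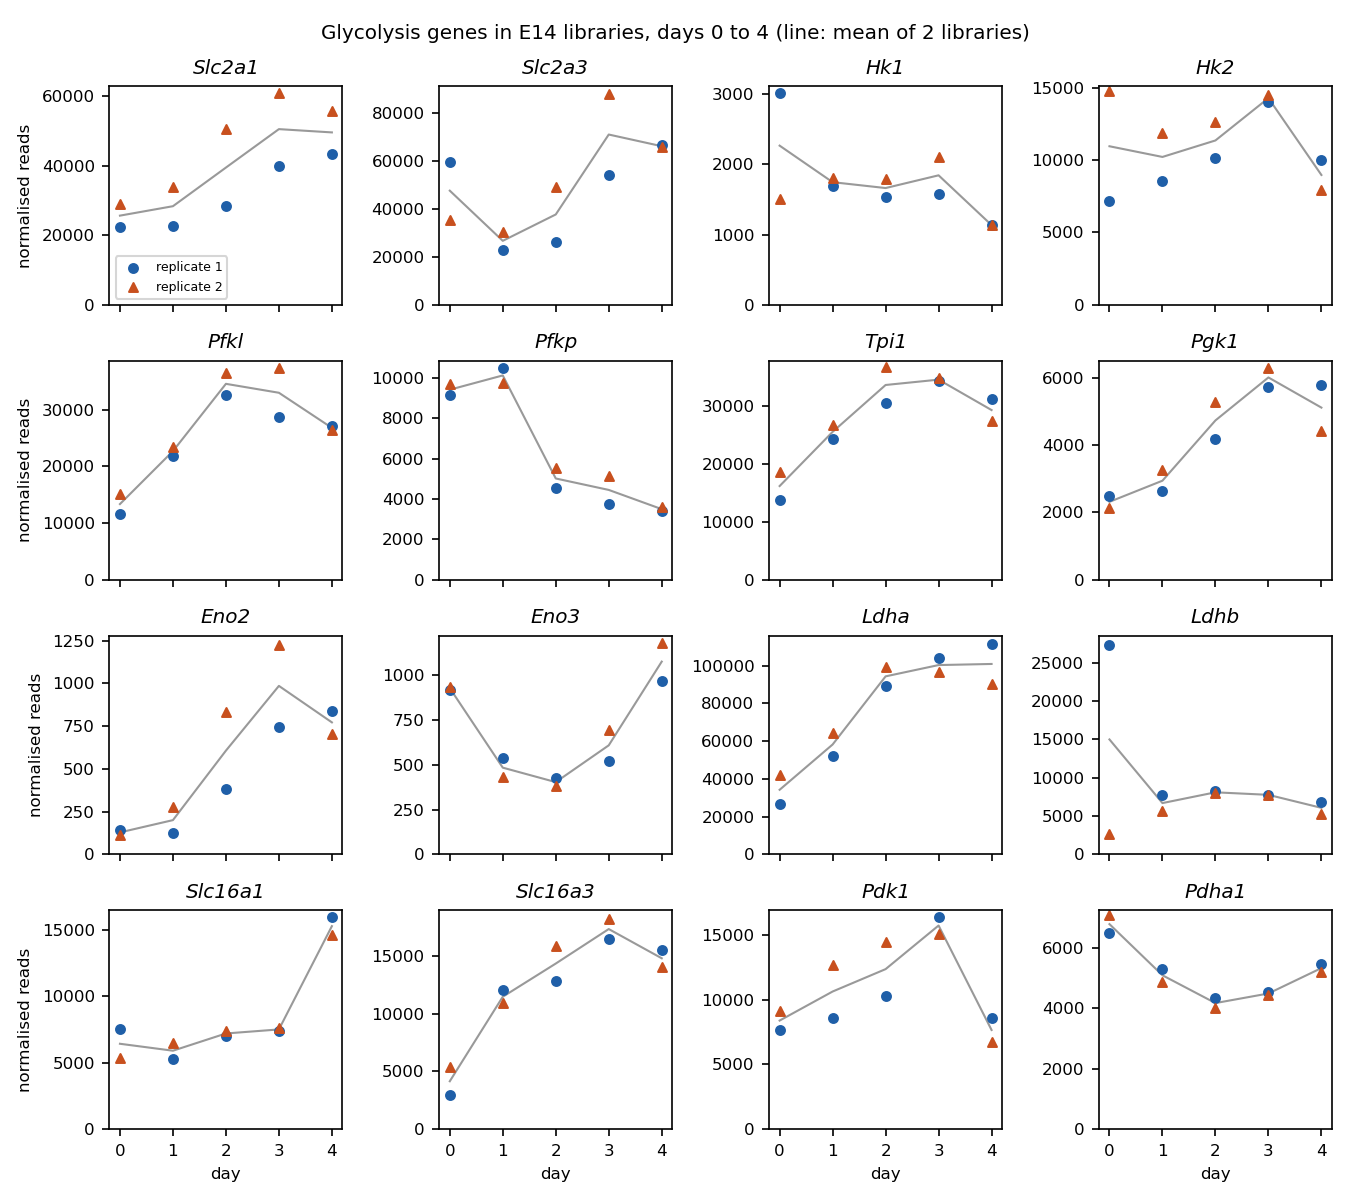
Normalised read count against day for 16 members in the 10 E14 libraries; points are the libraries of replicate 1 and replicate 2, and the line joins their means. Pfkl, Ldha and Slc16a3 are above their day 0 values from day 1 on, Pfkp falls after day 1, Slc16a1 steps up at day 4, and Ldhb has 1 library at 27317 at day 0.

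Aldolase splits the 6-carbon sugar and triose phosphate isomerase interconverts its products. Aldoa was at 67485 and 47455 at day 0 and 84334 and 76986 at day 4 (0.51 ± 0.27; limma, adjusted p = 0.16), and was not called. Aldoc, the brain-type aldolase, was at 1469 and 577 at day 0, 2248 and 3917 at day 2, and 2425 and 1946 at day 4. It was called at day 2 (1.69 ± 0.52; limma, adjusted p = 0.047), although 7 of 12 alternative analyses ended that call, among them the fits without day 0 replicate 2, without day 2 replicate 1 and without day 2 replicate 2, with adjusted p up to 0.28. Tpi1 was at 13675 and 18674 at day 0, 24355 and 26736 at day 1, 30617 and 36694 at day 2, 34301 and 34861 at day 3, and 31209 and 27428 at day 4. Every EB library lay above both ES cell libraries, with log2 fold changes of 1.07 ± 0.19 at day 2 and 0.87 ± 0.19 at day 4 (limma, adjusted p = 0.0049 and 0.0060). The call at day 2 ended without day 2 replicate 2 (highest adjusted p = 0.073) and that at day 4 without day 4 replicate 1 (highest adjusted p = 0.060).

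In the payoff phase, where ATP is made, the response was uneven from step to step. Gapdh ranged from 4241 to 8243 over the 10 libraries and was not called at day 2 (0.42 ± 0.22; limma, adjusted p = 0.21) or day 4 (0.19 ± 0.22, adjusted p = 0.52). Pgk1, the first ATP-making enzyme, was at 2495 and 2120.4 at day 0, 2626 and 3245 at day 1, 4174 and 5276 at day 2, 5714 and 6289 at day 3, and 5788 and 4425 at day 4. Its libraries of days 2 to 4 did not overlap those of days 0 and 1, and it was higher at day 2 by 1.03 ± 0.20 and at day 4 by 1.14 ± 0.20 (limma, adjusted p = 0.0080 and 0.0022). Pgam1, phosphoglycerate mutase, was higher by 0.71 ± 0.16 and 0.53 ± 0.16 (limma, adjusted p = 0.015 and 0.030). The call of Pgk1 at day 2 ended without day 2 replicate 2 (highest adjusted p = 0.098). Those of Pgam1 ended without either library of the EB day compared, and at day 4 also without day 0 replicate 1, with adjusted p up to 0.13 at day 2 and 0.21 at day 4. Pgam2, the muscle form, was at 39.6 to 220 normalised reads and was not called. Copies were looked for in reference annotation only as symbols made of a member's name and -ps or -rs. There were 3 of Gapdh, 3 of Pgk1, 2 of Pgam1, 2 of Aldoa, 3 of Ldha and 1 of Ldhb. Counts of these genes are uncertain where reads could fall on a copy. Copies under other names were not counted, so the other members may have copies too.

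Enolases precede the last step, and here the gene tables need care. Eno1, the ubiquitous form, was at only 7.42 to 15.4 in the time course, while Gm5506, a near-identical copy that RefSeq also calls Eno1b, was at 18543 to 34966. The 2 rows cannot be told apart by these counts, and Gm5506 was chosen after its values were seen. Gm5506 was higher at day 2 by 0.68 ± 0.16 (limma, adjusted p = 0.018) and differed at day 4 by 0.37 ± 0.16 (adjusted p = 0.099). Eno2, the neuronal enolase, was at 145 and 112 at day 0, 122 and 278 at day 1, 381 and 833 at day 2, 747 and 1225 at day 3, and 841 and 703 at day 4. It had the largest log2 fold change of the members called at day 4, 2.59 ± 0.46 (limma, adjusted p = 0.0023), after 2.14 ± 0.46 at day 2 (adjusted p = 0.012; 0.12 at most among the alternatives, where the call ended without day 2 replicate 2). Of the neuroectoderm markers Sox1, Pax6 and Nes, 0 were called higher and 1 lower at day 2 and at day 4, each against day 0. Their summed count was 4997 and 4238 at day 0 and 997 and 1271 at day 1. It was 2207 and 3084 at day 2, 3554 and 6964 at day 3, and 5094 and 4452 at day 4. Their part in the rise of Eno2 was not tested. Eno3, the muscle enolase, was at 919.8 and 938 at day 0, 539 and 429.6 at day 1, 426 and 381 at day 2, 521 and 698 at day 3, and 971 and 1183 at day 4. It was lower at day 2 than at day 0 (-1.20 ± 0.23; limma, adjusted p = 0.0075) and higher at day 4 than at day 2 (1.41 ± 0.23, adjusted p = 0.0035). Without day 2 replicate 2 the first call ended (highest adjusted p = 0.080), and without day 4 replicate 2 the second (adjusted p = 0.052). The 7 markers of cardiac and skeletal muscle summed to 349 to 712 in the time course libraries and were 682 and 510.2 at day 2 against 712 and 590.3 at day 4. Of the 6 muscle markers tested, 3 were lower and 1 was higher at day 4 than at day 2, with a median of -0.85, and their part in the result was not tested.

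Pyruvate kinase ends glycolysis. Pkm2, the row for both splice forms of the M gene, was at 77516 and 97724 at day 0, 122936 and 134400.0 at day 1, 147755 and 159980.0 at day 2, 151628 and 164313 at day 3, and 141066 and 128493 at day 4. Every EB library lay above both ES cell libraries, by log2 fold changes of 0.82 ± 0.18 at day 2 and 0.63 ± 0.18 at day 4 (limma, adjusted p = 0.014 and 0.023). Each call ended without either library of the EB day compared, with adjusted p up to 0.15. Pklr, the liver and red cell form, was at 37.0 to 99.8 and was not called. The M1 and M2 splice forms were not separable in gene counts.

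Genes of lactate production and export rose. Ldha, which reduces pyruvate to lactate, was at 26407 and 41969 at day 0, 52038 and 64328 at day 1, 89083 and 99481 at day 2, 104037 and 96503 at day 3, and 111650.0 and 90057 at day 4. Every EB library lay above both ES cell libraries, with log2 fold changes of 1.5 ± 0.24 at day 2 and 1.59 ± 0.24 at day 4 (limma, adjusted p = 0.0031 and 8.4e-04). Slc16a3 (MCT4), the lactate exporter of glycolytic cells, was at 2934 and 5347 at day 0, 12028 and 10880.1 at day 1, 12797 and 15858 at day 2, 16454 and 18174 at day 3, and 15539 and 14029.8 at day 4. It also separated every EB library from the ES cells, by 1.85 ± 0.25 at day 2 and 1.90 ± 0.25 at day 4 (limma, adjusted p = 0.0019 and 4.6e-04). Slc16a1 (MCT1), which carries lactate both ways, had another course: 7503 and 5325 at day 0, 5279 and 6504 at day 1, 6970.2 and 7405 at day 2, 7405 and 7578 at day 3, and 15915 and 14596 at day 4. Its day 4 libraries lay above all 8 others, and day 4 exceeded day 0 by 1.27 ± 0.19 (limma, adjusted p = 8.5e-04) and day 2 by 1.08 ± 0.19 (adjusted p = 0.0046; 0.058 without day 2 replicate 1). Of the 4 mesoderm markers (Mesp1, Kdr, Pdgfra and Tbx6), all rose at day 4, and their summed count was 142 to 227 at days 0 to 2, 449 and 818 at day 3, and 16251 and 16015 at day 4. Their part in the rise of Slc16a1 was not tested. Bsg, the chaperone that brings both exporters to the membrane, was higher at day 4 by 1.04 ± 0.24 (limma, adjusted p = 0.0078).

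Ldhb, which favours lactate use, was at 27317 in replicate 1 and 2664 in replicate 2 of day 0, more than any other member differed between libraries of a group. From day 1 to day 4 it was at 7724 and 5648, 8244 and 7938, 7753 and 7769.8, and 6805 and 5321. Its direction against day 0 therefore rested on 1 library: day 4 against day 0 was -0.50 ± 0.77 (limma, adjusted p = 0.64) with both, and 1.18 without replicate 1 (adjusted p = 0.0018). Stress and immediate early genes were high in that library, as given above, and their part in the Ldhb value was not tested.

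Pyruvate dehydrogenase and its kinases decide between lactate and mitochondria. Pdha1, the catalytic alpha subunit, was at 6489 and 7095 at day 0, 5304 and 4889 at day 1, 4350.3 and 4001 at day 2, 4551 and 4436 at day 3, and 5456 and 5214 at day 4. It was lower at day 2 by a log2 fold change of -0.70 ± 0.14 (limma, adjusted p = 0.0098), with no overlap of any EB library with the ES cells. Without either day 2 library that call ended, with adjusted p up to 0.12. Of the 4 kinases, Pdk2 rose, from 224 and 146 to 331 and 438 at day 2 and 427 and 396 at day 4 (1.07 ± 0.31 and 1.18 ± 0.31; limma, adjusted p = 0.038 and 0.015). Pdk4 fell, from 336 and 208 to 126 and 134 at day 4 (-1.02 ± 0.35; limma, adjusted p = 0.045), and that call ended without day 0 replicate 1, without either day 4 library, with TMM scaling and with no low-value filter, among 7 of 12 alternatives that ended it, with adjusted p up to 0.18. The calls of Pdk2 ended without either library of the EB day compared, and at day 2 also without day 0 replicate 2, with adjusted p up to 0.27 at day 2 and 0.094 at day 4. Pdk1, a known HIF-1 target, was at 7620.4 and 9136 at day 0, 16408 and 15026 at day 3, and 8558 and 6741 at day 4, a change over the 5 days (limma, adjusted p = 0.027) with its high point at day 3. Alternatives to that test were not recorded gene by gene. Pdk3 differed by 0.60 ± 0.23 at day 2 and 0.43 ± 0.23 at day 4 and was not called (limma, adjusted p = 0.10 and 0.17).

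Day 3 held the highest mean of 18 of the 33 members, and day 0 the lowest of 18. Days of the highest and lowest mean were not computed over all genes. Any change over the 5 days was called for 18 members (54.5%), against 38.9% of all genes, and 11 of those 18 peaked at day 3. The median of the members relative to their mean over the table was -0.38 and -0.46 log2 units in the day 0 libraries, -0.32 and -0.07 at day 1, -0.03 and 0.33 at day 2, 0.22 and 0.42 at day 3, and 0.14 and 0.03 at day 4. The median of all genes was between -0.0033 and 0.0041 by the same measure. In 11 members none of the 4 time course tests gave a call: Hk2, Gpi1, Pfkfb1, Pfkfb2, Aldoa, Gapdh, Pgam2, Eno1, Pklr, Ldhb and Pdk3.

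The 2 libraries of a group differed in the members in 1 direction more often than in other genes. Replicate 2 was higher in 25 of 33 members at day 1, 28 at day 2 and 28 at day 3, and replicate 1 in 25 of 33 at day 4, while in all genes replicate 1 was higher in 47.4% to 50.6% over the E14 groups. At day 0 replicate 1 was higher in 18 of 33. In the genotype table, replicate 2 was higher in 25 of 32 members in Trp53+/+ and 28 of 32 in p53 family loss. Over all genes, replicate 1 was higher there in 51.1% and 46.8%. The median difference, replicate 1 minus replicate 2, was -0.30 log2 units at day 1, -0.31 at day 2, -0.15 at day 3 and 0.13 at day 4, and -0.32 and -0.36 in the 2 genotypes. A list of 20 hypoxia response genes outside glycolysis, such as Egln3, an oxygen-sensing hydroxylase, and Ndrg1, went the same way in each of these 6 groups. So did the list of 16 genes of gluconeogenesis and glycogen (15 in the genotype table), with medians of -0.22, -0.30, -0.42 and 0.11 at days 1 to 4 and -0.17 and -0.18 in the genotypes. In both genotypes the median of each of the 7 pathway lists was below 0. Whether any list stands apart from the others was not tested. The 6 naive pluripotency markers went the other way in each of these groups. Their medians were 1.14, 0.31, 0.37 and -0.58 at days 1 to 4, and 0.57 and 0.42 in Trp53+/+ and p53 family loss. Primitive streak markers had medians of -0.41, -0.29, -0.47 and 0.12 at days 1 to 4, and -0.25 and -0.08 in the genotypes. The part of these markers in the differences was not tested. The median differences of the hypoxia genes were -0.75, -0.52, -0.21 and 0.36 at days 1 to 4 and -0.44 and -0.61 in the genotypes. Their summed count was 42972 and 38052 at day 0, 49512 and 56917 at day 1, 56768 and 77553 at day 2, 90199.9 and 106467 at day 3, and 90514 and 57798 at day 4. Hif1a, the regulated subunit of HIF-1, was not called for a change over the 5 days in RNA (limma, adjusted p = 0.86) and was at 4500.0 to 5871 normalised reads. The part of oxygen supply or of any other condition in these differences was not tested.

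**Figure D3:**
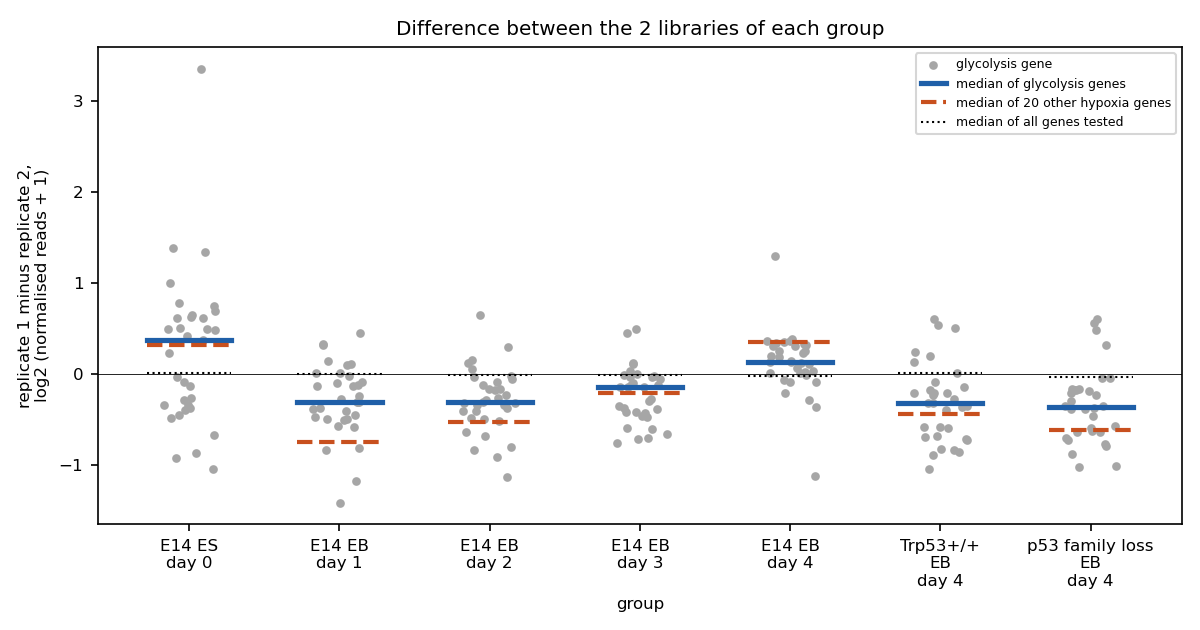
Difference in log2 (normalised reads + 1) between replicate 1 and replicate 2 of each group; grey points are single members, bars are the medians of the members (solid), of 20 other hypoxia genes (dashed) and of all tested genes (dotted). The solid and dashed bars are on the same side of 0 in every group, below it at days 1 to 3 and in both genotypes and above it at days 0 and 4.

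The genotype comparison asked whether loss of the p53 family alters these genes in EBs at day 4. None of 32 members tested passed limma's threshold, against 1.24% of all 14840 genes (0.566% higher and 0.674% lower). At an unadjusted p under 0.05 (limma) there were 3 members, against 2065 of all 14840 genes. Of the members edgeR called 0, with 184 genes in all, and DESeq2 called 2, Eno3 and Ldhb, with 657 genes in all. Eno1 did not pass the filter on low counts. The count of 0 rested on the Trp53+/+ libraries: without replicate 1 limma called 7 members, Eno3 higher and Tpi1, Gapdh, Pgk1, Pgam1, Ldha and Ldhb lower, and without replicate 2 it called 4, Eno3 and Pfkfb3 higher and Ldhb and Slc16a1 lower. Over all genes, calls rose as well in both of these fits, where a single library stood for Trp53+/+. The count of 0 also rested on leaving the replicate number out of the fit. With that number as a block, limma called 13 members, 3 higher and 10 lower, and 2973 genes in all. Across genes, deviations of same-numbered libraries of the 2 genotypes had a correlation of 0.572. The labels do not say that a number marks a shared batch. The targeted genes went with the labels: Trp53 differed by -3.57 ± 0.20 (limma, adjusted p = 0.0017) and Trp73 by -2.32 ± 0.28 (adjusted p = 0.022). Trp63 was at 0 to 6.08 in all 4 libraries and was not tested.

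Eno3 was at 772 and 674 in Trp53+/+ and at 1341 and 1509 in p53 family loss, with no overlap. Its log2 fold change was 0.98 ± 0.17 (limma, adjusted p = 0.066), and DESeq2 gave 0.96 (adjusted p = 0.0018). Muscle markers summed to 315 and 455 in Trp53+/+ and 306 and 335 in the loss libraries. Ldhb was at 8534 and 11180.0 in Trp53+/+ and at 4095 and 6079 in the loss libraries, again with no overlap (-0.97 ± 0.24; limma, adjusted p = 0.14; DESeq2, -0.97, adjusted p = 0.0044). Both genes were also called by limma when either Trp53+/+ library was left out, a fit in which the lone library is assumed to vary like the other genotype.

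In 5 members both loss libraries lay above both Trp53+/+ libraries: Slc2a1, Hk1, Pfkfb4, Eno3 and Pdk1 (5 of 32, against 23% of all genes). In 6 they lay below: Pfkfb1, Gapdh, Ldhb, Pdk4, Pdha1 and Slc16a1 (6 of 32, against 20.2% of all genes). Neither share was above the background. Slc2a1 was at 37443 and 42206 against 48233 and 54763 (0.37 ± 0.19; limma, adjusted p = 0.47), and Gapdh at 6388 and 7705 against 4009 and 5515 (-0.58 ± 0.21, adjusted p = 0.29; 0.012 without Trp53+/+ replicate 1). The other 21 overlapped. Ldha was at 46904 and 84529.8 in Trp53+/+ and 31508 and 57931 in the loss libraries (-0.56 ± 0.39; limma, adjusted p = 0.62). Tpi1 was at 18090.2 and 37168 against 11558 and 23172 (-0.66 ± 0.43; limma, adjusted p = 0.60). In both genes the 2 libraries of a genotype differed by more than the genotype means did. Without Trp53+/+ replicate 1 the differences were -0.98 for Ldha and -1.18 for Tpi1 (limma, adjusted p = 0.0067 and 3.4e-05), and without replicate 2 they were -0.13 and -0.14 (adjusted p = 0.91 and 0.88).

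In 23 of 32 members replicate 2 was above replicate 1 in both genotypes, against 38.6% of all genes. The ribosomal RNA precursor Rn45s took 0.632% and 4.30% of the reads in Trp53+/+ replicates 1 and 2 and 0.848% and 2.91% in the loss replicates, and its part was not tested. The composition of the EBs also differed between genotypes. Primitive streak markers (T, Eomes, Mixl1 and Gsc) summed to 27975 and 32782 in Trp53+/+ and 5802 and 5947 in the loss libraries, with 4 of 4 lower. Of the neuroectoderm markers, 2 of 3 were higher. The part of these differences in the values of the members was not tested. Myc, a known activator of glycolytic genes, was at 1745 and 2381 in Trp53+/+ and 736 and 952 in the loss libraries (-1.28 ± 0.22; limma, adjusted p = 0.064).

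**Figure D4:**
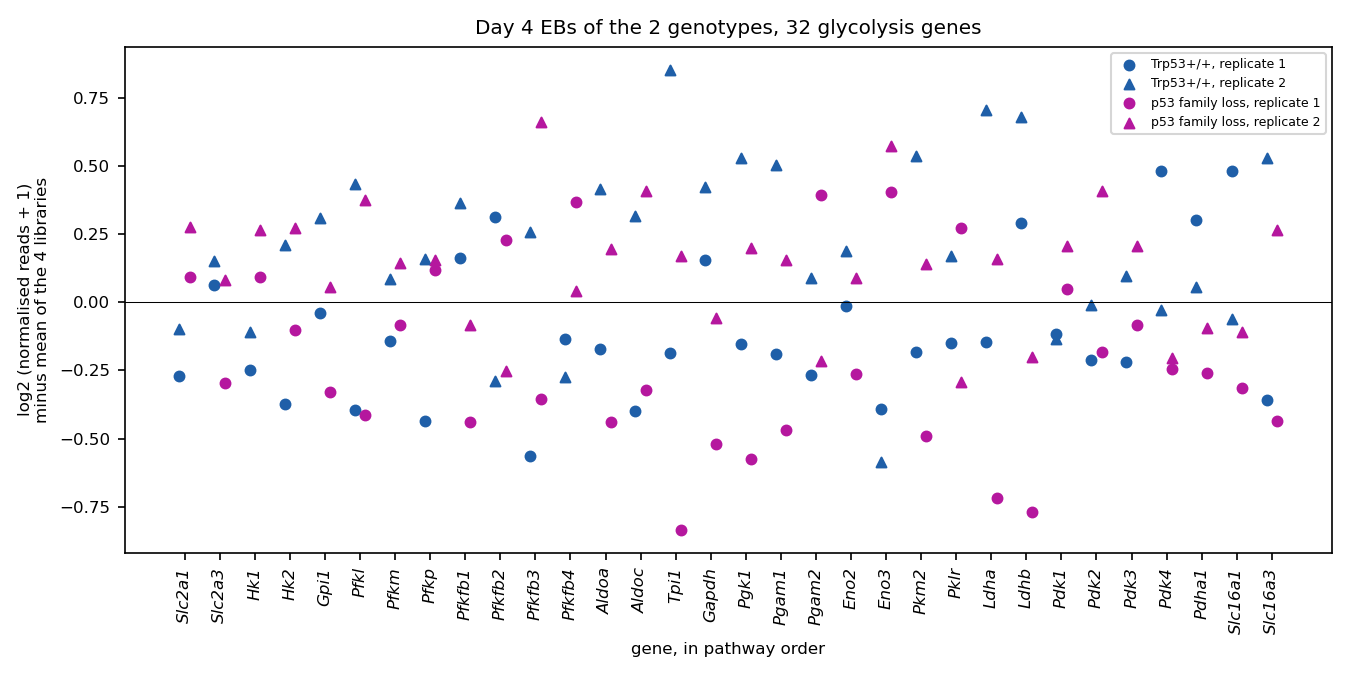
Log2 (normalised reads + 1) of 32 members in the 4 day 4 libraries of the genotype table, minus their mean, in pathway order; colour gives the genotype and shape the replicate. Triangles (replicate 2) lie above circles (replicate 1) of the same colour for most members, and only Eno3 and Ldhb separate the colours and were called by DESeq2.

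Neighbouring pathways were described by lists chosen by function, at day 4 against day 0, where 19.2% of all genes were higher and 16.7% lower. In the TCA cycle, which burns pyruvate in mitochondria, 0 of 17 genes were higher than at day 0 and 4 were lower, among them citrate synthase, Cs (-0.59 ± 0.15; limma, adjusted p = 0.015), with a median of -0.20. Of 9 genes of pyruvate entry into mitochondria, 0 were higher and 3 lower: Pdhb, the beta subunit beside Pdha1 (-1.25 ± 0.21; limma, adjusted p = 0.0019), Pdhx (-0.73 ± 0.21) and Brp44l, the pyruvate carrier subunit now named Mpc1 (-1.54 ± 0.46). The pentose phosphate pathway, which branches off at glucose-6-phosphate, had 1 of 11 higher and 3 lower, with Prps1, which uses its product ribose phosphate, at -1.56 ± 0.16 (limma, adjusted p = 1.2e-04).

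Genes of gluconeogenesis and glycogen were split, 5 of 16 higher and 4 lower, with a median of 0.47. The glycogen branching enzyme Gbe1 was higher by 2.44 ± 0.46 (limma, adjusted p = 0.0030) and the gluconeogenic Fbp2 lower by -3.63 ± 0.71. Of 18 other glucose transporters and isoenzymes 7 were higher and 2 lower, with a median of 0.70 and Slc2a10 at 3.15 ± 0.64 (limma, adjusted p = 0.0046). The 20 hypoxia response genes had 11 higher and 2 lower and a median of 1.00, with Ndrg1 at 2.90 ± 0.33 (limma, adjusted p = 2.1e-04), Egln3 at 2.71 ± 0.38 and Egln1 at 2.23 ± 0.39.

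Of 16 regulators of glucose use 1 was higher, 7 were lower and 8 were not called. Txnip and Arrdc4, paralogous arrestins that curb glucose uptake, differed by -1.10 ± 0.18 and -1.60 ± 0.21 (limma, adjusted p = 0.0013 and 4.8e-04), and Txnip was at 7598 and 6353 at day 0 and at 2803 to 4864 in all E14 EB libraries. Mycn was lower by -1.28 ± 0.19 (limma, adjusted p = 9.1e-04), Myc differed by 0.36 ± 0.51 (adjusted p = 0.60), and Trp53 was lower by -0.68 ± 0.18 (adjusted p = 0.016). In the genotype table Trp53 and Trp73 were the genes called in these 7 lists.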

How the data were processed

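RNA was sequenced from 14 libraries of ES cells and EBs, and 16 ChIP-seq and input samples were not analysed here. Per the submitters' processing notes, the build was mm9 and the tools included HTSeq 0.5.4 and Bowtie2, besides DESeq2, SAMtools 0.1.19 and FastQC 0.11.3, listed with no role. The authors deposited a signal per gene and library, and 100% of its values were whole reads times 1 factor per library (tolerance 1e-06).

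Each table was fitted whole with limma 3.58.1 in R 4.3.3, its variance prior following mean expression, after adding a pseudocount of 1 to the deposited signal and taking log2. Genes first passed edgeR's filterByExpr on the recovered reads, and p-values were Benjamini-Hochberg adjusted over all genes tested. Simulated counts were also fitted, with no criterion for passing. They had 1 dispersion per gene over all groups and so do not cover the wider spread at day 0. Alternatives were edgeR 4.0.16 quasi-likelihood, DESeq2 1.42.0, pseudocounts of 0.5 and 5, no filter, TMM scaling, a replicate block, only the groups compared and leaving out each library. All members may be named, up to 3 called genes per list and comparison with the smallest p, and a fixed set of regulators and markers. Members and lists were chosen with earlier results of these data known. Shares of isoenzymes were not computed, as transcript lengths were not used here. Promoters matched by symbol for 32 of 33 members, with build GRCm38.p6 in place of mm9, and serve only for sequence. Genotype factors were 1.06 to 1.09 times median-of-ratios factors, so levels are not set across tables. Floors and intervals from reads would cover counting error only.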

Additional observations from a re-analysis of the deposited data

How the results depend on the processing

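Over all alternatives, calls of single members were lost 35 times and gained 11 times at day 4 against day 0, 34 and 10 times at day 2 against day 0, 2 and 10 times at day 4 against day 2, and 0 and 26 times between the genotypes, and 2 values reversed. The 2 were Ldhb without day 0 replicate 1, 1.18 at day 4 and 1.60 at day 2, each against day 0, since that library held 27317 normalised reads of Ldhb against 2664 in the other. Without replicate 2 in its place they were -2.18 and -1.76. With only the groups compared in the fit, 7 members and 2822 genes were called at day 4 against day 0 (16 and 5698 in the whole fit), 2 and 808 at day 2 against day 0 (14 and 2904), and 12 and 6765 at day 4 against day 2 (2 and 2540). The cause was not tested. Leaving out 1 library gave 7 to 20 members and 2817 to 7619 genes at day 4 against day 0, 4 to 19 members and 681 to 6282 genes at day 2 against day 0, 1 to 2 members and 619 to 1103 genes at day 4 against day 2, and 10 to 27 members and 3444 to 10525 genes for any change (18 and 6159). Day 4 against day 0 was lowest without day 4 replicate 1 (7 members) or replicate 2 (9), and day 2 against day 0 without day 2 replicate 2 (4) or replicate 1 (7). Any change fell to 10 members without day 3 replicate 2 or either day 4 library.

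For the genotypes, DESeq2 called 2 members and 657 genes (0 and 184 in limma), and leaving out 1 library gave 0 to 7 members and 208 to 1613 genes, with 7 members without Trp53+/+ replicate 1 and 4 without replicate 2. With the replicate number as a block, 13 members were called, 3 higher (Slc2a1, Hk1 and Eno3) and 10 lower (Gpi1, Pfkfb1, Tpi1, Gapdh, Pgk1, Pkm2, Ldha, Ldhb, Pdha1 and Slc16a1), with 2973 genes called in all. The labels do not say that a number marks a shared batch. Deviations of same-numbered genotype libraries had a correlation across genes of 0.572, in 1 pair of groups, and those of the time course -0.19 to 0.351, over 0.1 in 3 of 10 pairs of groups, so the numbers were not taken as pairs. In the time course the block moved no count of members by more than 1.5 times, and it ended the calls of Pdk4 at day 4 (limma, adjusted p = 0.053) and Aldoc at day 2 (adjusted p = 0.057). Counting error is large for Eno1, at 7 to 16 reads per time course library.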
